A study of Homo sapiens with 4 samples.

Results

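The genes described here are 59 nuclear genes of mitochondrial protein import, upkeep of the mitochondrial genome, and mitochondrial dynamics. They were chosen by gene symbol, and each matched 1 transcript cluster (a probe set that summarises one locus) of the 21448 that were tested. The genes, their roles and the lists of further genes were chosen with earlier results of these data known. SUIT2 cells, a human tumour line in RPMI medium with serum, were exposed for 24 h to 30 µM fb-PMT (n = 2 arrays), against phosphate-buffered saline for the same time in the control group (n = 2 arrays). fb-PMT is a polyethylene glycol conjugate built on the thyroid hormone analog tetraiodothyroacetic acid, which acts at a thyroid hormone site on an integrin of the cell surface, and the study asked how it alters transcription of genes that tumour cell mitochondria need. Total RNA was measured on single-colour whole-transcript arrays. The labels do not state whether replicates are separate cultures, so the tests measure only the spread between these arrays, which may be technical.

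Almost all mitochondrial proteins are made in the cytosol and carried in. The TOM complex forms the entry pore of the outer membrane, TIM23 passes proteins with a presequence on to the matrix, TIM22 inserts carriers into the inner membrane, and a motor built around the chaperone mortalin pulls the chain through. Mitochondrial DNA is copied by its own polymerase, helicase and single-strand binding protein and is transcribed by a single-subunit RNA polymerase with its own initiation factors. Nuclear factors such as NRF1, GABPA and ESRRA, with coactivators of the PGC-1 family, drive many of the nuclear genes involved, and tumours vary widely in how much they use this programme. Mitochondria also fuse and divide, through large GTPases on their membranes.

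The values are log2 intensities after RMA, so a difference of 1 is a 2-fold change. The 95th percentile of the negative control probe sets was 7.15 and 7.29 on the fb-PMT arrays and 7.38 and 7.22 on the control arrays, and a gene is called below the negative controls in a group where neither array exceeded that percentile. Of the 59 genes, 50 lay above it on all 4 arrays, 7 lay below it on all 4 (TIMM29, TIMM44, GFER, PPARGC1A, PPARGC1B, POLG and MIEF2), and POLRMT and ESRRA lay above it on some. Replicate arrays correlated with r = 0.996 for fb-PMT and 0.995 for control, and arrays of different groups with 0.992 to 0.994. The labels call these cells glioblastoma, although SUIT-2 is known as a pancreatic carcinoma line. All 4 glial markers examined (GFAP, OLIG1, OLIG2 and SOX10) stayed below the negative controls throughout. Of 6 epithelial markers EPCAM, KRT7, KRT8, KRT18 and KRT19 were above them on all 4 arrays while CDH1 was below. Of the mesenchymal markers COL1A2 was above them on all 4 arrays, and COL1A1 and DCN were below. Of the leukocyte markers CD68 was above them on all 4 arrays, and PTPRC and CD3E were below.

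None of the 59 genes differed past the threshold. In limma's test, with p-values adjusted over all 21448 transcript clusters and a threshold of 0.05, 0 were higher and 0 lower with fb-PMT, where 0.0979% of all transcript clusters were called higher and 0.0% lower. At an unadjusted p under 0.05, 0 were higher (5.7% of all transcript clusters) and 4 were lower (5.49% of all), namely PPRC1, TWNK, POLRMT and ESRRA. Those 4 make up 6.78% of the genes described, a share near that of all transcript clusters. All 4 belong to the 14 genes of biogenesis and genome upkeep, or 28.6% of them, and POLRMT and ESRRA lay above the negative controls on some arrays only. When 1 array was left out, the differences ran from -0.67 to -0.47 (PPRC1), -0.55 to -0.39 (TWNK), -1.15 to -0.46 (POLRMT) and -0.42 to -0.31 (ESRRA). Above the negative controls on every array, 2 of 50 genes were lower at this p (4.0%) and 0 higher. Among transcript clusters with a symbol above them, 4.05% were lower and 7.05% higher. The measured differences were small: the median size, regardless of sign, was 0.132 on the log2 scale, against 0.175 over all transcript clusters, and 3 genes differed by more than 0.5 (POLRMT, GFER and PPRC1). That is 5.08% of the 59, against 9.48% of all transcript clusters. However, 11820 of all transcript clusters lay below the negative controls on all 4 arrays, against 7 of the 59. Above them on every array, the share over 0.5 was 2.0% of 50 genes and 6.93% of 7646 transcript clusters with a symbol. Their median sizes were 0.115 and 0.151.

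In direction, 24 of the 59 were higher and 35 lower with fb-PMT, that is 59.3% lower, against 52.7% of all transcript clusters. The median log2 difference was -0.050, against -0.017. Both fb-PMT arrays lay below both control arrays in 20 genes (33.9%, against 22.3% of all transcript clusters) and above them in 11 (18.6%, against 20.2%), and in 28 genes the groups overlapped. Above the negative controls on every array, 56.0% of 50 genes were lower, against 48.9% of 7646 transcript clusters with a symbol. Both fb-PMT arrays were below both control arrays in 16 of the 50, against 1779 of the 7646, and above them in 9, against 2009. Over the 59 genes the median standard error of a difference was 0.155. With 2 arrays a group, this gives an unadjusted 95% interval of 0.385 to either side, or 1.31-fold, in a typical gene. Larger differences also failed the adjusted threshold, as PPRC1 did at 1.48-fold (adjusted p = 0.346 in limma's test). OXA1L, a further import gene described below, did not pass at 1.69-fold (adjusted p = 0.233 in limma's test). The half-width of 1.31-fold is thus not the size at which a gene would be called. The absence of calls therefore does not exclude changes of 1.48-fold, 1.69-fold or more. The plot of the 59 differences by role shows how few intervals lie wholly on one side of 0.

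**Figure D1:**
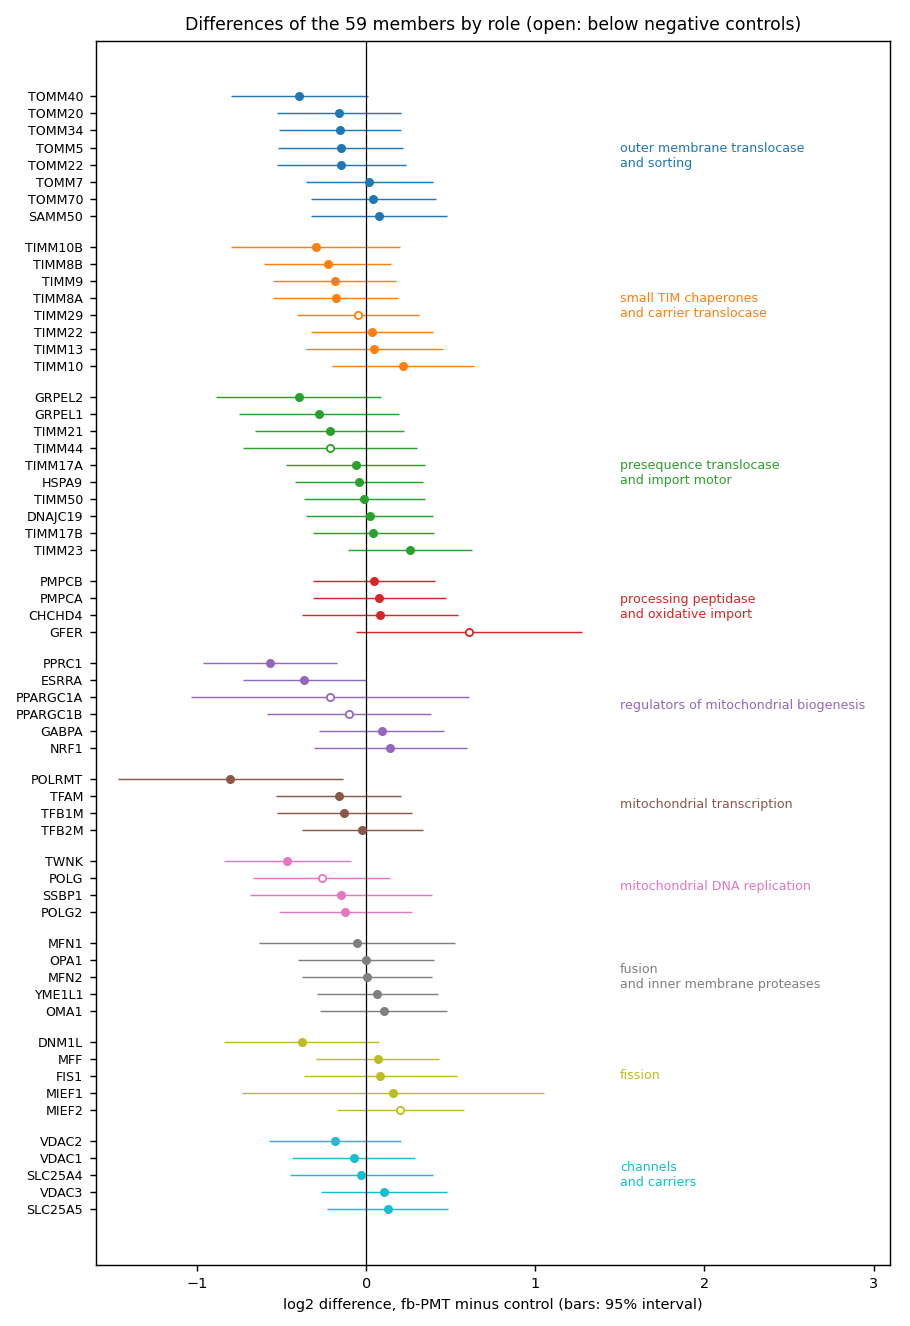
Log2 difference, fb-PMT minus control, of each of the 59 genes, grouped by role, with 95% intervals from limma's moderated variance (n = 2 arrays each). Open circles are genes below the negative controls in both groups. Only PPRC1, TWNK, POLRMT and ESRRA have intervals that leave out 0, all on the lower side.

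**Figure D2:**
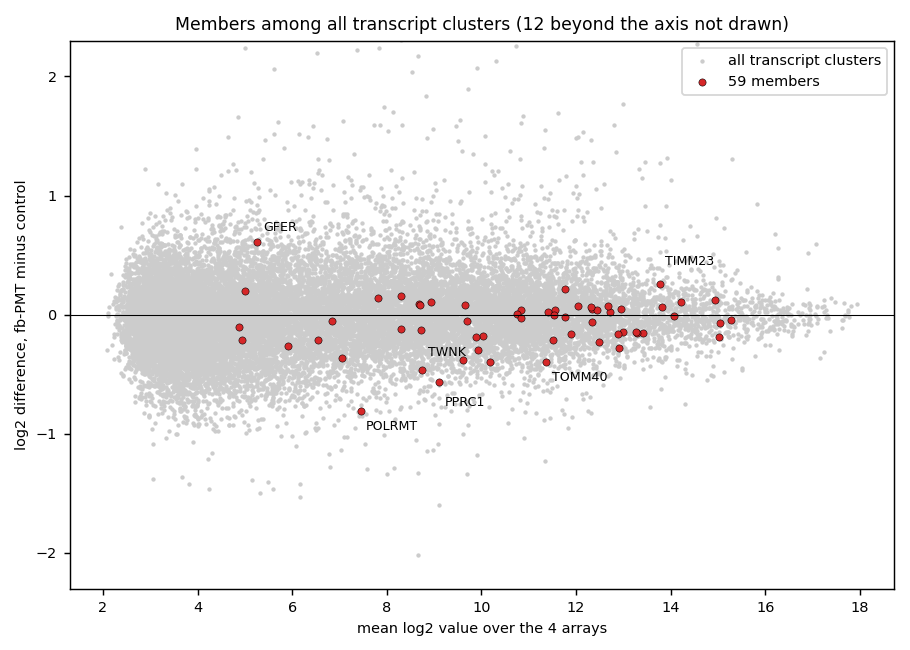
Log2 difference, fb-PMT minus control, against the mean log2 value over the 4 arrays for the 59 genes (red) and all 21448 transcript clusters (grey); 12 transcript clusters beyond a difference of 2.3 are not drawn. The 59 genes lie within the grey cloud at every level, between -0.80 for POLRMT and 0.61 for GFER.

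Transcription of the mitochondrial genome held the largest difference as measured. POLRMT, the mitochondrial RNA polymerase, had log2 values of 7.21 and 6.87 on the fb-PMT arrays, against 7.50 and 8.19 on the control arrays. The groups did not overlap, but the control arrays lay 0.689 apart, and fb-PMT replicate 2 was below the negative controls while fb-PMT replicate 1 was just above them, so no fold is given. The difference was -0.80 (SE 0.27, 95% interval -1.47 to -0.14), and it did not pass (adjusted p = 0.392). It was -0.46 without control replicate 2 and -1.15 without control replicate 1.

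The other genes grouped with POLRMT differed less. TFAM, which packages mitochondrial DNA and bends its promoters, had log2 values of 12.87 and 12.74 with fb-PMT, against 12.95 and 12.99 in the control group. Both fb-PMT arrays were the lower ones, by a difference of -0.16 (95% interval -0.53 to 0.21, adjusted p = 0.729). TFB2M, which melts the promoter with POLRMT, was at 11.75 and 11.76 with fb-PMT, against 11.81 and 11.75 in the control group, a difference of -0.024 (95% interval -0.38 to 0.33). TFB1M, a methyltransferase that modifies ribosomal RNA in the matrix, had a difference of -0.13 with overlapping groups. All 4 genes grouped under mitochondrial transcription thus had negative differences, with a median of -0.147, and TFB2M turned to 0.003 without control replicate 1.

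Among genes that copy mitochondrial DNA, TWNK had the largest difference. It encodes Twinkle, the helicase that opens the double strand ahead of the polymerase. Its log2 values were 8.43 and 8.59 with fb-PMT, against 8.97 and 9.00 in the control group, so the groups were separated by more than either pair of replicates. The difference was -0.47 (SE 0.15, 95% interval -0.84 to -0.093), or 1.38-fold lower, with an adjusted p of 0.378, and it stayed between -0.55 and -0.39 when any 1 array was left out.

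POLG, the catalytic subunit of the mitochondrial DNA polymerase, was below the negative controls on all 4 arrays, at 5.89 and 5.66 with fb-PMT against 5.97 and 6.11 in the control group, so no fold is given. POLG2, its processivity subunit, had a difference of -0.12 with overlapping groups (8.14 and 8.31 with fb-PMT, against 8.43 and 8.27 in the control group). SSBP1, the single-strand binding protein, had a difference of -0.15, and its replicates lay 0.292 apart with fb-PMT and 0.470 apart in the control group. The 4 genes of mitochondrial DNA replication had a median difference of -0.207, and SSBP1 turned to 0.087 without control replicate 2.

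Among regulators of mitochondrial biogenesis, PPRC1 had the smallest p of the 59 genes. It encodes a coactivator of the PGC-1 family that responds to growth signals and works with NRF1 and ESRRA. The log2 values were 8.92 and 8.72 with fb-PMT, against 9.33 and 9.45 in the control group. Both fb-PMT arrays were clearly the lower ones. The difference was -0.57 (SE 0.16, 95% interval -0.96 to -0.17), or 1.48-fold lower, with an adjusted p of 0.346 and a range of -0.67 to -0.47 when any 1 array was left out.

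ESRRA, the orphan nuclear receptor ERR-alpha, had log2 values of 6.93 and 6.82 with fb-PMT, below the negative controls, against 7.23 and 7.24 in the control group. The difference as measured was -0.37 (SE 0.15, adjusted p = 0.446). In the control group only replicate 2 exceeded the negative controls, by little, so no fold is given. The better known coactivators of the family, PPARGC1A (PGC-1 alpha) and PPARGC1B (PGC-1 beta), did not exceed the negative controls on any array. PPARGC1A was at 5.04 and 4.62 with fb-PMT, against 5.50 and 4.58 in the control group, and the groups overlapped.

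The DNA-binding factors NRF1 and GABPA had small positive differences. NRF1, nuclear respiratory factor 1, was at 8.04 and 7.73 with fb-PMT, against 7.85 and 7.63 in the control group, a difference of 0.14 with overlapping groups (95% interval -0.31 to 0.59). GABPA, the ETS-family subunit of nuclear respiratory factor 2, had a difference of 0.091 (95% interval -0.28 to 0.46), with no overlap between the groups. Over the 6 regulators 2 were higher and 4 lower.

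NRF1 and GABPA are known to bind promoters of mitochondrial genes, so the promoters of the 59 genes were searched for their motifs. RefSeq promoter sequences (GRCh38.p14, 250 bases before to 50 after the start of the gene) matched 52 of the 59 by symbol. The NRF1 motif searched was GCGCANGCGC and the ETS motif CCGGAAG, both on either strand. The NRF1 letters were present in 14 of the 52 promoters (26.9%, against 6.28% of 27305 promoters) and the ETS letters in 20 (38.5%, against 10.7%). Both were present in 7, namely GRPEL2, POLG2, POLRMT, TFB1M, TIMM29, TOMM20 and TOMM34 (13.5%, against 1.26%). The median log2 difference was -0.143 in the 14 genes with the NRF1 letters, of which 11 were lower, and -0.018 in the 38 without, of which 20 were lower. For the ETS letters the medians were -0.052 in the 20 genes with them, of which 12 were lower, and -0.033 in the 32 without, of which 19 were lower. Differences of genes outside the 59 that have these letters were not examined. These are descriptions of letters in a window and show neither binding nor a cause.

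The stretches below show the NRF1 letters, in capitals, upstream of the 3 genes with the largest differences among those that have such a match before the start, of TFAM, and of OPA1, whose difference was the smallest of them. Each is written from 5′ to 3′ on the strand of its gene, in GRCh38.p14. The stretch of POLRMT lies at chr19:633538-633586 on the minus strand, where 2 matches overlap, the nearest beginning 18 bases before the start. That of TOMM40 lies at chr19:44891007-44891066, ESRRA at chr11:64305406-64305465, TFAM at chr10:58385322-58385381 and OPA1 at chr3:193593089-193593148, all on the plus strand.
POLRMT: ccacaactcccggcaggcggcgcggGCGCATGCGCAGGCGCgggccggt
TOMM40: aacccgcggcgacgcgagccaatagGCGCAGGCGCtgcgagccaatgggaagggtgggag
ESRRA: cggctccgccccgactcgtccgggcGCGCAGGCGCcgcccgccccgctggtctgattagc
TFAM: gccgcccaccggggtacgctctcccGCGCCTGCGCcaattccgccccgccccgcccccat
OPA1: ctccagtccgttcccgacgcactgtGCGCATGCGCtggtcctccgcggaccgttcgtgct
The first match of POLRMT and the match of OPA1 share the same letters, GCGCATGCGC. The promoters differ in other ways, as that of POLRMT holds 2 overlapping matches and 1 ETS match. That of OPA1 holds no ETS match, and its NRF1 match begins 94 bases before the start. The log2 difference was -0.80 for POLRMT, whose signal lay near the negative controls, and -0.001 for OPA1. Whether the letters bear on the differences was not tested.

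**Figure D3:**
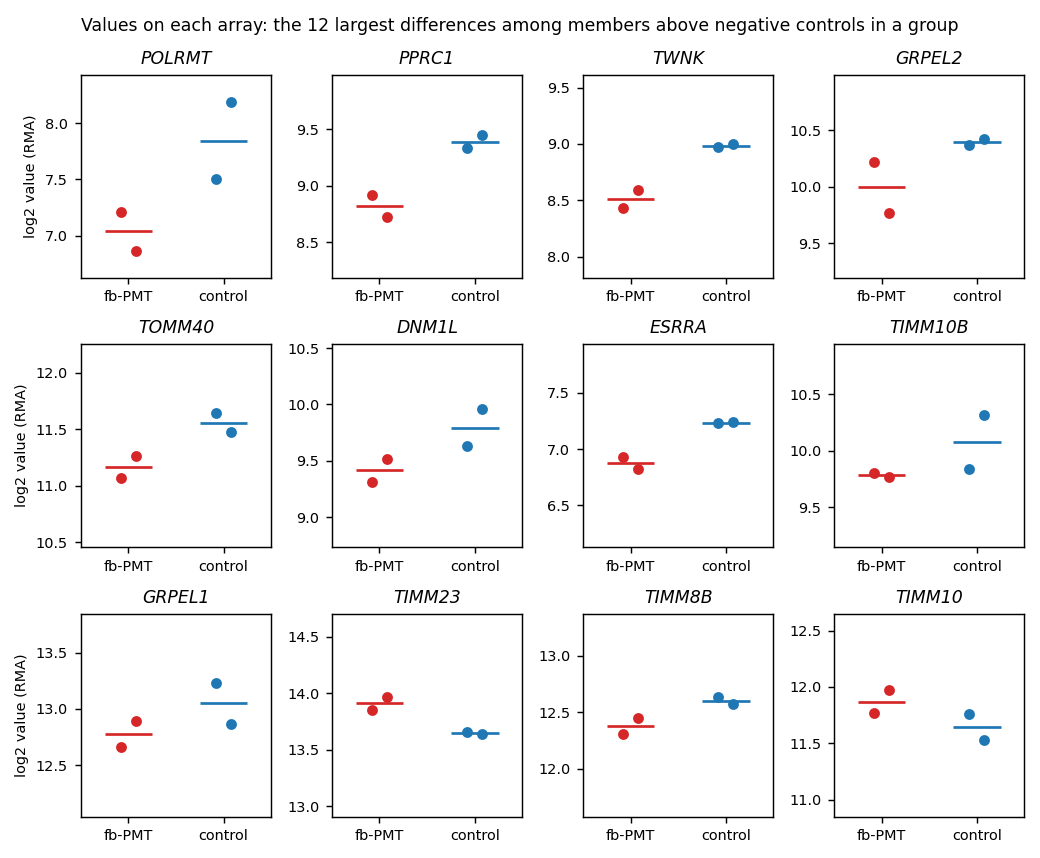
Log2 values on each array (points) and group means (lines; n = 2 arrays each) for the 12 genes with the largest differences among those above the negative controls in at least 1 group; every panel spans the same range of 1.8. TWNK, PPRC1 and ESRRA show tight pairs that lie apart, while POLRMT and TIMM10B owe much of their difference to 1 high control array.

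In the group of outer membrane translocase and sorting, which includes the cytosolic TOMM34, 5 of 8 genes were lower with fb-PMT. In all 5 the fb-PMT arrays lay below the control arrays. Among all transcript clusters 52.7% were lower and 22.3% had both fb-PMT arrays below both control arrays. TOMM40, which forms the pore through which nearly all imported proteins pass, was the furthest apart. Its log2 values were 11.07 and 11.26 with fb-PMT, against 11.64 and 11.48 in the control group, with a difference of -0.40 (SE 0.16, 95% interval -0.80 to 0.0070), or 1.32-fold lower, and an adjusted p of 0.451. TOMM20, a receptor for presequences, had values of 11.76 and 11.86 with fb-PMT, against 11.93 and 12.01 in the control group, a difference of -0.16 (adjusted p = 0.731).

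TOMM5, a small subunit, TOMM22, the central receptor, and TOMM34, a cytosolic co-chaperone, were each lower by a similar amount, with differences of -0.15. The small subunit TOMM7 (0.018), the receptor TOMM70 (0.042) and SAMM50 (0.075), which inserts barrel proteins into the outer membrane, had differences near 0 and overlapping groups. Each of these 3 changed sign when 1 array was left out. The median of the 8 was -0.149, and none had an unadjusted p under 0.05.

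The small TIM chaperones carry hydrophobic proteins across the space between the membranes, and their differences had both signs. TIMM10 was at 11.77 and 11.97 with fb-PMT, against 11.76 and 11.53 in the control group, a difference of 0.22 (adjusted p = 0.673) that was 0.12 without fb-PMT replicate 2 and 0.10 without control replicate 2. Its relative TIMM10B was at 9.80 and 9.77 with fb-PMT, against 9.84 and 10.32 in the control group, a difference of -0.30 (adjusted p = 0.625) that shrank to -0.059 without control replicate 2. TIMM9, the partner of TIMM10 in the hexameric chaperone, had a difference of -0.19 and groups that did not overlap.

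TIMM8A, the gene mutated in a deafness and dystonia syndrome, had a difference of -0.18, and TIMM8B was at 12.31 and 12.45 with fb-PMT, against 12.64 and 12.57 in the control group, a difference of -0.23 (adjusted p = 0.619). Their partner TIMM13 had a difference of 0.048 with overlapping groups. TIMM22, the channel that inserts carriers into the inner membrane, had a difference of 0.035, and TIMM29, another subunit of that translocase, was below the negative controls. Of these 8 genes 3 were higher and 5 lower, with a median of -0.115.

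In the presequence translocase, the channel subunit TIMM23 had the largest positive difference among those of the 30 import genes described here that lay above the negative controls. Its log2 values were 13.85 and 13.97 with fb-PMT, against 13.66 and 13.64 in the control group. Both fb-PMT arrays were higher, by 0.26 (SE 0.15, 95% interval -0.11 to 0.63), or 1.20-fold, with an adjusted p of 0.570. TIMM23B is a near-identical copy, so the signal of the 2 genes cannot be told apart with certainty, and TIMM23B itself had a difference of 0.039.

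The other channel and receptor subunits lay close to 0. TIMM17A (-0.064) and TIMM17B (0.042), alternative partners of TIMM23, and TIMM50 (-0.012), which receives the incoming chain, had 95% intervals that lay between -0.47 and 0.40. TIMM21, which links the translocase to respiratory complexes, was at 11.56 and 11.25 with fb-PMT, against 11.70 and 11.55 in the control group, a difference of -0.22 with overlapping groups (-0.38 to -0.058 when 1 array was left out). TIMM44, which tethers the motor, was below the negative controls on all 4 arrays, at 6.50 and 6.38 with fb-PMT, against 6.90 and 6.41 in the control group.

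Within the motor, the nucleotide exchange factors GRPEL1 and GRPEL2 had larger measured differences than mortalin itself, which was not tested as a contrast. HSPA9, which encodes mortalin, was at 15.32 and 15.20 with fb-PMT, against 15.37 and 15.23 in the control group, a difference of -0.042 (95% interval -0.42 to 0.34) with overlapping groups. GRPEL1 was at 12.66 and 12.89 with fb-PMT, against 13.23 and 12.87 in the control group, a difference of -0.28 (adjusted p = 0.629) with overlapping groups that was -0.10 without control replicate 1 and -0.46 without control replicate 2. GRPEL2, its relative, was at 10.22 and 9.77 with fb-PMT, against 10.37 and 10.42 in the control group. That difference of -0.40 (adjusted p = 0.522) rests in large part on fb-PMT replicate 2, without which it was -0.17. DNAJC19, a J-protein of the motor, had a difference of 0.020.

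In processing and oxidative import all 4 genes had positive differences. PMPCA (0.076) and PMPCB (0.046), the subunits of the peptidase that cuts off presequences, and CHCHD4 (0.082), the oxidoreductase that traps proteins between the membranes, had small positive differences and overlapping groups. GFER, which reoxidises CHCHD4, had the largest positive difference as measured, but it was below the negative controls on all 4 arrays, at 5.43 and 5.70 with fb-PMT against 4.60 and 5.32 in the control group. No fold is given for it, and the difference had an adjusted p of 0.484.

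The genes of fusion stayed closest to their controls, with 5 differences between -0.053 and 0.10. MFN2, a mitofusin that also tethers mitochondria to the endoplasmic reticulum, was at 10.78 and 10.73 with fb-PMT, against 10.65 and 10.85 in the control group, a difference of 0.0030 (95% interval -0.38 to 0.39). OPA1, the GTPase that fuses inner membranes, was at 11.57 and 11.49 with fb-PMT, against 11.41 and 11.65 in the control group, a difference of -0.001 (95% interval -0.40 to 0.40). In both genes the fb-PMT arrays lay between the control arrays. The mitofusin MFN1 had a difference of -0.053 with control arrays 0.612 apart. OMA1 (0.10) and YME1L1 (0.065), the proteases that cut OPA1, were higher on both fb-PMT arrays than on both control arrays.

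Among genes of fission, DNM1L had the largest difference. It encodes DRP1, the GTPase that constricts mitochondria, and was at 9.31 and 9.52 with fb-PMT, against 9.63 and 9.96 in the control group. Both fb-PMT arrays were lower, by a difference of -0.38 (SE 0.18, 95% interval -0.84 to 0.073), or 1.30-fold, with an adjusted p of 0.515, and it was -0.22 without control replicate 2.

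The outer membrane proteins that recruit DRP1 had positive differences. FIS1 was at 0.082 with overlapping groups, and MFF at 0.067, higher on both fb-PMT arrays. MIEF1 was at 0.16, with fb-PMT arrays that lay 0.984 apart, the widest gap between fb-PMT replicates among the 59 genes, and MIEF2 was below the negative controls. The plot of each role's median on each array shows the fission and fusion genes with mixed arrays.

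The channels and carriers of high abundance in tumour cells differed by less than 0.2. VDAC1, the main pore for metabolites in the outer membrane, was at 15.00 on both fb-PMT arrays, against 15.12 and 15.03 in the control group, a difference of -0.074 (95% interval -0.44 to 0.29). VDAC2 had a difference of -0.19 and VDAC3 one of 0.11, in neither case with overlap between the groups. SLC25A5, the ADP/ATP carrier of dividing cells, was at 15.01 and 14.99 with fb-PMT, against 14.90 and 14.84 in the control group, a difference of 0.13 (95% interval -0.23 to 0.49). SLC25A4, the carrier of muscle and heart, had a difference of -0.030 with overlapping groups.

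**Figure D4:**
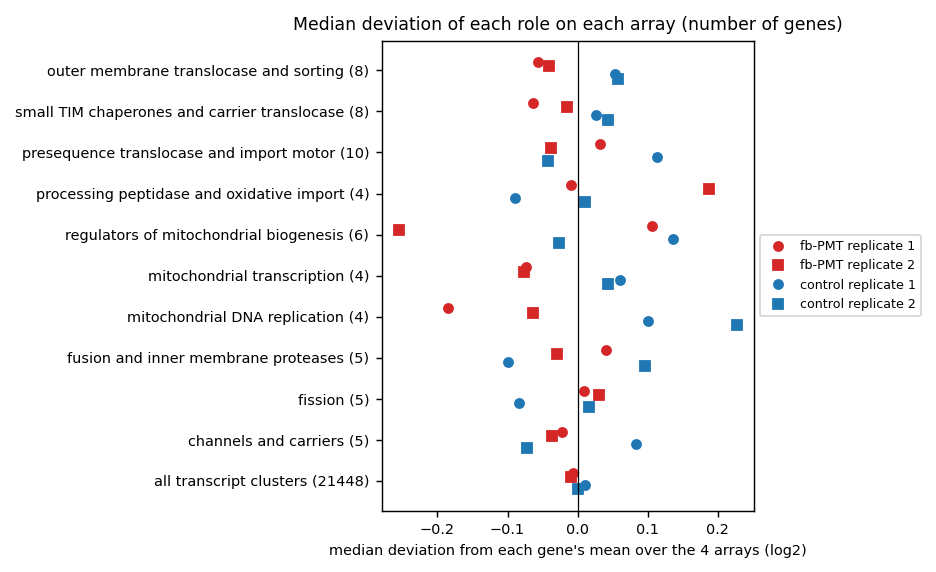
Median, over the genes of each role, of the deviation from each gene's mean over the 4 arrays (log2), for fb-PMT (red) and control (blue), with replicate 1 as circles and replicate 2 as squares; the number of genes is in brackets. In the 2 roles of the mitochondrial genome, the outer membrane and the small TIM chaperones both fb-PMT medians lie below both control medians, while the fusion genes and the presequence translocase are mixed. Over all transcript clusters the fb-PMT medians (-0.006 and -0.01) also lie below both control medians, by less.

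By broad group, 17 of 30 import genes, 12 of 14 genes of biogenesis and genome upkeep and 6 of 15 genes of dynamics and channels were lower. Their median log2 differences were -0.046, -0.155 and 0.065, and 52.7% of all transcript clusters were lower. Of the 14, 3 lay below the negative controls on all 4 arrays and 2 above them on some only, all of these lower. The lower genes PPARGC1A, PPARGC1B, TFB2M and SSBP1 also changed sign when 1 array was left out. The groups of fb-PMT and control arrays did not overlap in 15 of the 30, 7 of the 14 and 9 of the 15, or 52.5% of the 59, against 42.6% of all transcript clusters. Whether these broad groups differ from each other was not tested, as their members share arrays. A lower value in a whole culture does not separate fewer cells that carry the RNA from less RNA per cell.

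Further genes of the same pathways, taken from textbook lists with earlier results of these data known, gave the setting. Of 75 listed genes 67 were measured, and in limma's test 0 were higher and 0 lower past the threshold, with 3 higher and 3 lower at an unadjusted p under 0.05 (4.48% each way, against 5.7% higher and 5.49% lower among all transcript clusters). Their median log2 difference was -0.011, and 31 were higher and 36 lower. In import, OXA1L, the insertase that places proteins into the inner membrane from the matrix, was at 14.22 and 14.09 with fb-PMT, against 13.39 and 13.42 in the control group. The difference was 0.75 (SE 0.15, 95% interval 0.38 to 1.12), or 1.69-fold, with an adjusted p of 0.233, and it passed with an intensity trend in the variance (adjusted p = 0.00132). IMMP1L, an inner membrane peptidase, had a measured difference of -0.60 and was below the negative controls with fb-PMT, and MTX2, a metaxin of the outer membrane, had a difference of 0.48 (adjusted p = 0.377).

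Other genes of genome upkeep were lower in 15 of 24 cases, with a median of -0.041. The largest differences were those of TRMT10C, a subunit of the matrix enzyme that cuts transfer RNAs from the long transcripts (-0.47, adjusted p = 0.408), ATAD3A, a membrane ATPase near nucleoids (-0.45, adjusted p = 0.519), and MGME1, a nuclease of mitochondrial DNA (-0.36, adjusted p = 0.446). The difference of ATAD3A was -0.19 without control replicate 2 and -0.70 without control replicate 1. Among other genes of dynamics and quality control 13 were higher and 13 lower. MICOS13, a subunit of the cristae junction complex (0.52, adjusted p = 0.458), RHOT1, which couples mitochondria to microtubule motors (0.43, adjusted p = 0.392), and the matrix protease subunit CLPX (-0.32, adjusted p = 0.590) had the largest differences there. When 1 array was left out, MICOS13 ran from 0.25 to 0.785 and CLPX from -0.49 to -0.15. RHOT1 was at 11.53 and 11.52 with fb-PMT, against 11.09 and 11.10 in the control group, so its replicates were much closer to each other than the groups were.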

How the data were processed

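Total RNA of 2 fb-PMT and 2 control samples was measured on whole-transcript arrays. Per the submitters' processing notes, the authors made the deposited log2 values with RMA (Transcriptome Analysis Console, version 4.0.1.36). RMA corrects background, normalizes between arrays and shrinks differences of dim probe sets. Scanner files were not used here. Of 24351 probe sets, 2903 controls were left out. All 59 Entrez identifiers matched RefSeq with the same symbol.

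A linear model per transcript cluster (lmFit and eBayes of limma 3.58.1, R 4.3.3) estimated fb-PMT minus control with no covariate. P-values are two-sided and Benjamini-Hochberg adjusted over 21448 transcript clusters. Moderation used 3.72 prior beside 2 residual degrees of freedom. The fit was tested on simulated data. The number of arrays limits the precision, and the median standard error over all transcript clusters was 0.175. Bounds use the 95th percentile of 612 negative controls.

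The 59 genes, roles and lists were chosen with earlier results of these data known. Any of the 59 may be named; values per array are given for those with an unadjusted p under 0.05, the 16 largest differences and 14 fixed genes, and of each other list the 3 largest differences. Of 12 gene pairs compared, values are in the closing section. Alternatives were a replicate block, variance models, filters on dim or unnamed transcript clusters, renewed normalization, array weights, leaving out each array and a threshold of 0.1. Deviations of arrays with the same replicate number correlated with r = 0.042, so the numbers were not taken to pair the arrays.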

Additional observations from a re-analysis of the deposited data

How the results depend on the processing

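None of the 59 genes passed under any alternative run. The lowest adjusted p was 0.0778, for PPRC1 with the filter on negative controls, which tests fewer transcript clusters. Over all transcript clusters, where 21 were higher and 0 lower, the counts were 293 and 110 with an intensity trend, 286 and 108 with robust variances, 216 and 73 with the filter on negative controls, 61 and 6 without the lowest 30%, 42 and 2 among those with a symbol, 65 and 8 at a threshold of 0.1, and 1 and 0 with the replicate block. Leaving out 1 array gave 1 to 9 higher and 0 lower. Of the further pathway genes 1 was higher with an intensity trend, 1 with robust variances and 1 with the filter on negative controls, in each case OXA1L.

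Of the 59, 35 were lower, and 31 to 38 when 1 array was left out. Their median of -0.050 was -0.030 with the filter on negative controls (51 genes), -0.069 with renewed quantile normalization and -0.059 to -0.025 when 1 array was left out. At an unadjusted p under 0.05, where 0 were higher and 4 lower, 1 was higher with the replicate block and 3 lower, 1 higher and 7 lower with an intensity trend, 1 higher with robust variances, and 0 to 1 higher and 1 to 4 lower when 1 array was left out. The replicate numbers were not taken to pair the arrays, and the replicate block made no call among the 59.

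The sign held in every alternative for 36 genes. For 23 it turned when 1 array was left out, all with small or noisy differences, with ranges of -0.061 to 0.097 (TOMM7), -0.030 to 0.113 (TOMM70), -0.049 to 0.199 (SAMM50), -0.056 to 0.152 (TIMM13), -0.0030 to 0.073 (TIMM22), -0.171 to 0.044 (TIMM17A), -0.463 to 0.033 (TIMM44), -0.029 to 0.0060 (TIMM50), -0.044 to 0.083 (DNAJC19), -0.109 to 0.024 (HSPA9), -0.025 to 0.176 (PMPCA), -0.115 to 0.278 (CHCHD4), -0.673 to 0.244 (PPARGC1A), -0.324 to 0.121 (PPARGC1B), -0.012 to 0.297 (NRF1), -0.051 to 0.0030 (TFB2M), -0.383 to 0.087 (SSBP1), -0.359 to 0.252 (MFN1), -0.094 to 0.10 (MFN2), -0.121 to 0.119 (OPA1), -0.106 to 0.270 (FIS1), -0.334 to 0.650 (MIEF1) and -0.184 to 0.124 (SLC25A4). With renewed quantile normalization TOMM7 was -0.019, DNAJC19 -0.0020 and MFN2 -0.026, and with centring on medians OPA1 was 0.001. The cause of these turns was not tested. Signal near the negative controls limits what POLRMT, ESRRA and the 7 dim genes can show.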

Other observations

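Near relatives among the 59 genes, and POLG with its processivity subunit POLG2, were compared within arrays. The measure was the difference between their log2 differences, in 12 pairs with no test. The widest gap was between TIMM10 and TIMM10B, at 0.518 (TIMM10 minus TIMM10B), where the 2 fb-PMT arrays lay above the 2 control arrays, although the control arrays varied with an SD of 0.503. VDAC1 minus VDAC3 was -0.18 and SLC25A4 minus SLC25A5 -0.157, both lower on both fb-PMT arrays than on both control arrays, and VDAC1 minus VDAC2 was 0.112, higher on both. In the other 8 pairs the groups overlapped, among them GRPEL1 and GRPEL2 (0.121), TIMM17A and TIMM17B (-0.106), TFB1M and TFB2M (-0.108) and MFN1 and MFN2 (-0.056).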
